A study of Camelus dromedarius with 10 samples.

Results

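Cyclic nucleotide signalling in the supraoptic nucleus (SON) is described here through 36 genes: 10 adenylyl cyclases (ADCY1 to ADCY10), 21 phosphodiesterases (PDEs), 3 guanylyl cyclase genes (GUCY1A2, NPR1 and NPR2) and both cGMP-dependent protein kinases (PKG; PRKG1 and PRKG2). They are 36 of the 22444 Ensembl gene IDs of the dromedary camel in the count table, chosen by name. All 36 symbols were paired with an ID through the gene names in the supplementary tables of the study, 4 of them (ADCY1, PDE4C, PDE8B and PDE11A) by the name of the human ortholog.

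RNAseq libraries depleted of ribosomal RNA were made from the rostral SON of male dromedary camels aged 4 to 5 years that were housed outdoors on a ranch. Control camels drank and ate freely (5 libraries: CON2, CON3, CON4, CON5 and CON13). Water-deprived (WD) camels had food but no water for 20 days (5 libraries: WD6, WD7, WD8, WD9 and WD15). Each library is the SON of 1 side of the brain of 1 animal, punched from frozen sections, and a punch also holds glia and vessels. In such bulk tissue, fewer cells of a type and less RNA per cell cannot be told apart.

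Adenylyl cyclases make cAMP from ATP, mostly under the control of G protein-coupled receptors, and guanylyl cyclases make cGMP in response to nitric oxide or natriuretic peptides. PDEs hydrolyse cAMP, cGMP or both, and so set how long and how far each signal spreads. PKG is a main target of cGMP, as PKA is of cAMP. In the magnocellular neurones of the SON, which make vasopressin and oxytocin, cAMP is a known activator of the vasopressin gene, and nitric oxide acting through cGMP is a known modulator of firing.

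Read pairs assigned to genes, which are fewer than the mapped reads, ran from 1665098 to 7518432 in control libraries (median 4233342). In WD libraries they ran from 4227685 to 8126641 (median 5000749). Since 5 gene IDs took 27.7% to 76.1% of a library, the depth left for other genes was uneven: 1 read pair was worth 1.20 CPM (counts scaled to a common library size, after TMM normalization) in CON13, 0.475 CPM in WD6 and 0.0864 to 0.237 CPM elsewhere. The 6 magnocellular markers with an ID (PDYN, SCG2, PCSK1, SIM1, OTP and ARNT2) summed to 692 to 1031 CPM in control and 1521 to 2599 CPM in WD libraries, without overlap. The sum was carried by the secretory genes PDYN, SCG2 and PCSK1, called higher by edgeR with log2 fold changes of 1.93, 1.48 and 2.02. The transcription factor genes SIM1 (−0.04), ARNT2 (−0.03) and OTP (−0.58, unadjusted p = 0.0255) were not called. VIP, a marker of the neighbouring suprachiasmatic nucleus, had 32 counts over the 10 libraries and was at 0 in WD6, WD9 and WD15. AVP and OXT were not paired with an ID in the tables used here.

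WD was compared with control by edgeR's quasi-likelihood F test over 14432 genes, with Benjamini-Hochberg adjusted p at most 0.05 as the call. Every one of the 36 genes had counts in all 10 libraries, and 35 passed the filter on low counts. PDE6A, a rod photoreceptor PDE with 108 counts in all, did not. None of the 35 was called by edgeR, against 72 of all genes tested (0.499%; 0.27% higher and 0.229% lower in WD). An unadjusted p under 0.05 was reached by 6 of the 35 (17.1%), against 9.31% of all genes (4.91% higher and 4.41% lower in WD). These were ADCY8, PDE8B and PDE10A with a higher mean in WD and PDE1B, ADCY10 and PRKG2 with a lower one. DESeq2's Wald test called 1 of the 36, ADCY8, against 1.27% of the genes for which it gave an adjusted p (0.638% higher in WD).

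The set as a whole was centred close to no difference. The median log2 fold change (WD over control) was −0.06 over the 35 genes and 0.02 over all genes tested, and the median size was 0.20 against 0.22. Values above 0 were found for 14 and below 0 for 21, between −1.18 and 0.71, against 7490 above and 6942 below over all genes tested. The 95% interval lay within a 2-fold change in either direction for 25 of the 35 genes (9557 of all 14432), and within 1.5-fold for 5 (3074 of 14432). For the other 10 genes a 2-fold change lay inside the interval.

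**Figure D1:**
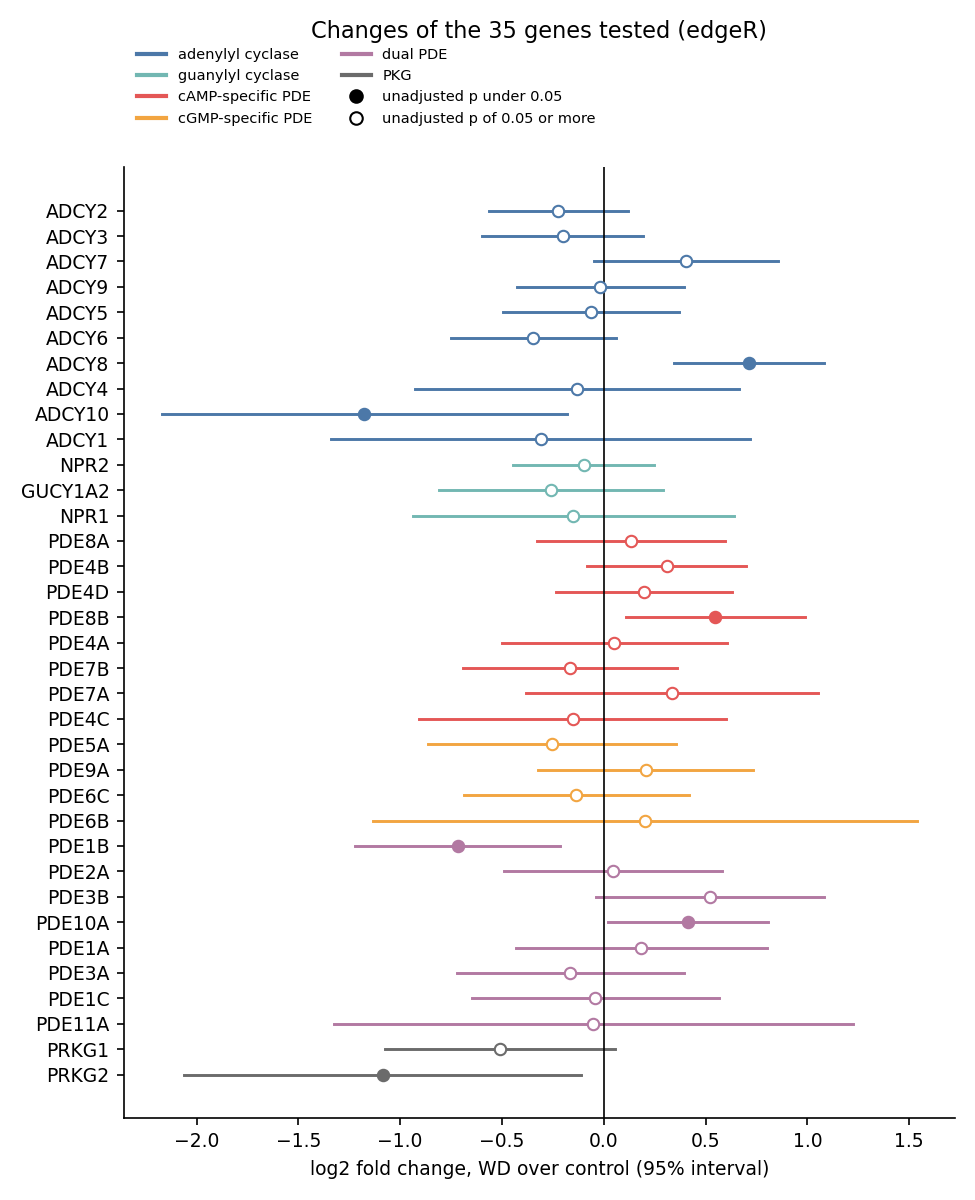
Log2 fold change (WD over control, x axis) of the 35 genes tested, with the 95% interval of edgeR's fit as a line; colours give the enzyme group and filled points an unadjusted p under 0.05. The intervals of 6 genes lie off 0, those of the low genes (ADCY10, ADCY1, PDE6B, PDE11A and PRKG2) are the widest, and no gene passed the adjusted threshold.

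In control camels the mean level ran from 2.85 CPM for PDE11A to 67.8 CPM for ADCY2, and 17 of the 36 genes stood at 20 CPM or more. No transcript length was available to put the genes on a common scale, so this is an order of read pairs and not of transcripts. Neighbours in the order were rarely apart: of 35 neighbouring pairs, only ADCY3 (63.1 ± 9.14 CPM, SD, n = 5) and NPR2 (50.7 ± 6.18 CPM, n = 5) kept the same order in all 5 control libraries. By read pairs, ADCY2 led the adenylyl cyclases, PDE8A the cAMP-specific PDEs (48.1 ± 16.8 CPM), PDE1B the PDEs of both substrates (44.4 ± 14.4 CPM) and PDE5A the cGMP-specific PDEs (18.2 ± 8.0 CPM). The control coefficient of variation was under 20% for 9 of the 35 genes that passed the filter, among them PDE10A at 6.29%, ADCY5 at 10.2% and NPR2 at 12.2%.

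**Figure D2:**
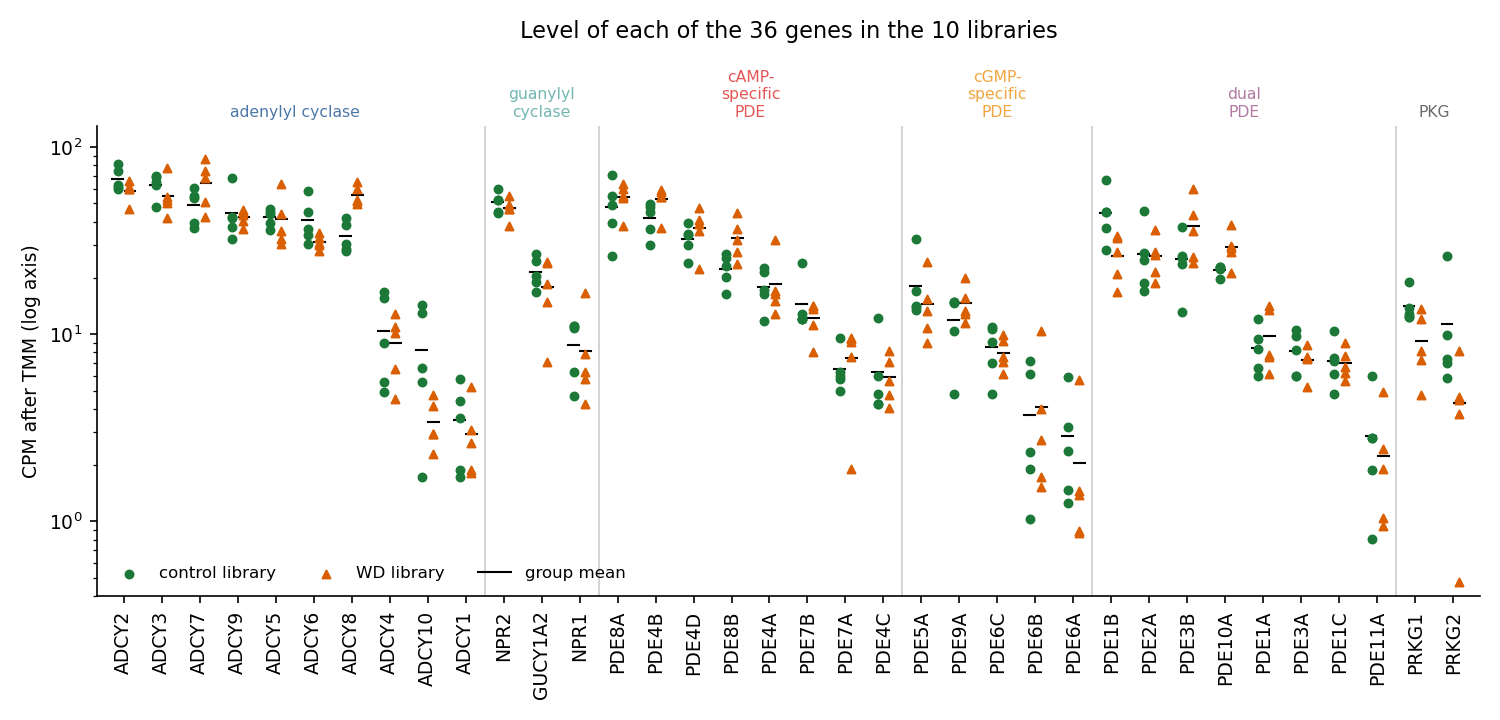
Level of each of the 36 genes (CPM after TMM, log axis) in 5 control (green circles) and 5 WD libraries (orange triangles), with group means as black bars, by enzyme group and in falling order of the control mean. The groups are apart for ADCY8, where every WD library (49.5 to 65.2 CPM) lies above every control library (28.0 to 42 CPM), and overlap for the other 35 genes.

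ADCY8 is a membrane cyclase stimulated by calcium and calmodulin, so that it can turn calcium entry into cAMP. Its level was 28.0 CPM in CON2, 30.5 in CON3, 42 in CON4, 38.2 in CON5 and 28.7 in CON13. In the WD libraries it was 51.7 CPM in WD6, 49.5 in WD7, 59.5 in WD8, 52.4 in WD9 and 65.2 in WD15. All 5 WD libraries were above all 5 control libraries, which held for ADCY8 alone of the 35 genes, against 2.62% of all genes in either direction (1.34% for higher in WD). With libraries scaled by their totals alone, the groups overlapped for ADCY8 as well. The means were 33.5 ± 6.26 and 55.7 ± 6.52 CPM (SD, n = 5 each), with a log2 fold change of 0.71 (SE 0.18, 95% interval 0.34 to 1.08). By edgeR the unadjusted p was 7.67e-04 and the adjusted p was 0.102, above the threshold. DESeq2 gave 0.71 (SE 0.18) with an adjusted p of 0.0113.

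The size of the ADCY8 difference moved little between fits, and its call moved with the test. Leaving out 1 library at a time gave log2 fold changes of 0.63 to 0.80 in edgeR, with adjusted p between 0.0612 (without WD6) and 0.342 (without CON3). With the depth of each library as a covariate, edgeR gave 0.68 and called it (adjusted p = 0.0391, with 1.07% of all genes called, 0.61% higher in WD). Without CON13 and WD6 it was 0.68 (adjusted p = 0.117). ADCY8 made up 9.34% ± 2.27 of the adenylyl cyclase read pairs in control libraries and 15.5% ± 2.39 in WD libraries (SD, n = 5 each). These shares overlapped, since CON4 was at 12.6% and WD6 at 12%. WD15, the highest for ADCY8, also had the highest summed level of the 10 microglial markers, and PDYN, SCG2 and PCSK1, though not SIM1, ARNT2 or OTP, were higher in every WD than in every control library. The part of these genes in the ADCY8 difference was not tested.

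**Figure D3:**
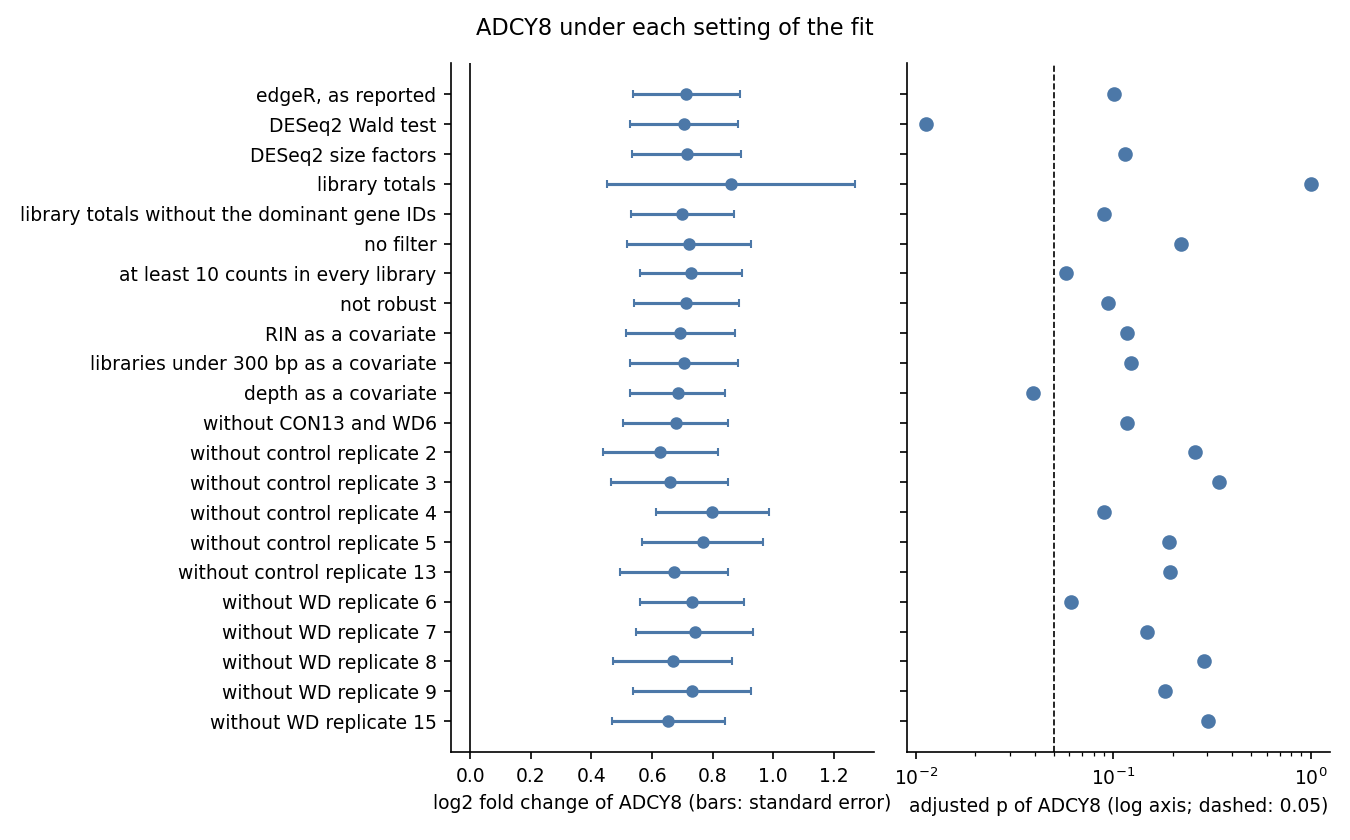
ADCY8 under each setting of the fit: the log2 fold change with its standard error (left) and the adjusted p on a log axis with the 0.05 threshold dashed (right). The fold change stays between 0.63 and 0.86, while the adjusted p is under 0.05 with DESeq2 (0.0113) and with depth as a covariate (0.0391) and above it in the other settings.

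The other calcium-stimulated cyclases did not share the sign of ADCY8. ADCY3, known for its place in the cilia of neurones, had a log2 fold change of −0.20 (95% interval −0.60 to 0.19). ADCY1 was low, at 3.47 ± 1.71 CPM in control and 2.92 ± 1.39 in WD libraries (n = 5 each), and its interval ran from −1.34 to 0.72. Of the 10 cyclases, 8 had a value below 0 and 2 above, against 6942 below and 7490 above over all genes, with a median of −0.17.

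ADCY10 is the soluble adenylyl cyclase, which responds to bicarbonate and calcium rather than to G proteins. It had the largest negative value of the 35 genes in edgeR's fit, while DESeq2 gave −1.21 for ADCY10 and −1.22 for PRKG2. Its control libraries spread widely, with 6.62 CPM in CON2, 13 in CON3, 1.72 in CON4, 5.56 in CON5 and 14.3 in CON13. The WD libraries were close together, at 4.75 CPM in WD6, 2.30 in WD7, 2.92 in WD8, 4.15 in WD9 and 2.92 in WD15. CON4 was below every WD library, and the other control libraries were above every one of them. ADCY10 had a log2 fold change of −1.18 (SE 0.47, 95% interval −2.17 to −0.18; adjusted p = 0.439), and it ran from −1.50 to −0.87 as single libraries were left out.

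Among the cyclases stimulated by G protein βγ subunits, ADCY2 had the highest control mean by read pairs, though it was above ADCY3 in 3 of 5 control libraries only. It ran from 59.8 CPM in CON13, 61.3 in CON2, 62.9 in CON3 and 74.4 in CON4 to 80.8 in CON5. In WD libraries it was 46.7 CPM in WD15, 59.5 in WD9, 59.6 in WD7, 61.1 in WD8 and 66.0 in WD6. The groups overlapped, and the log2 fold change of −0.22 had an interval of −0.57 to 0.12 (edgeR, adjusted p = 0.729), and was −0.15 without CON5. ADCY7, a cyclase known from blood cells and microglia and named here after its values were seen, was at 36.9 to 60.2 CPM in control and 42.5 to 86.5 CPM in WD libraries. Its log2 fold change was 0.40 (95% interval −0.05 to 0.86; adjusted p = 0.605) and 0.28 without WD15, its highest library, or 0.20 with RNA integrity as a covariate. All 10 microglial markers had values above 0 and an unadjusted p under 0.05 in edgeR, which called 1 (C1QA), while DESeq2 called 3 (C1QA, C1QB and C1QC). The shares of all genes were 9.31% at an unadjusted p under 0.05, 0.499% called by edgeR and 1.27% called by DESeq2. The markers summed to 387 to 612 CPM in control and 511 to 1885 CPM in WD libraries, with 1885 in WD15. Their part in the ADCY7 values was not tested. ADCY4, of the same class, was at −0.13 (95% interval −0.93 to 0.66).

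The calcium-inhibited cyclases ADCY5 and ADCY6, and ADCY9, which forskolin activates poorly, had means between 31.1 and 44.3 CPM in both groups. ADCY5 had a log2 fold change of −0.06 (95% interval −0.49 to 0.37) and ADCY9 of −0.02 (−0.43 to 0.39). ADCY6 was lower in mean, at 40.9 ± 11.3 CPM in control and 31.1 ± 2.69 in WD libraries (n = 5 each), with an interval of −0.75 to 0.06. The summed cyclase level was 363 ± 32.5 CPM in control and 364 ± 41.1 CPM in WD libraries.

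The guanylyl cyclase genes differed by less than their spread. NPR2, the receptor for C-type natriuretic peptide, was at 44.6 CPM in CON2, 52.0 in CON3, 52.0 in CON4, 45.2 in CON5 and 59.8 in CON13. It was at 55.0 CPM in WD6, 49.0 in WD7, 37.9 in WD8, 46.5 in WD9 and 46.9 in WD15, inside the control range in all but WD8. NPR2 had a log2 fold change of −0.10 (SE 0.17, 95% interval −0.45 to 0.25), which was −0.16 without CON2, −0.05 without WD8 and 0.038 when libraries were scaled by their totals. NPR1, the receptor for atrial and brain natriuretic peptides, was at 8.80 ± 3.06 CPM in control and 8.13 ± 4.91 in WD libraries (n = 5 each). GUCY1A2, a subunit of the nitric oxide-sensitive cyclase, was at 21.6 ± 4.16 and 17.8 ± 7.20 CPM, with an interval of −0.81 to 0.29 on the log2 scale.

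Of the 8 cAMP-specific PDEs (families 4, 7 and 8), 6 had a value above 0, against 7490 of all 14432 genes, with a median log2 fold change of 0.17. PDE8B, a high-affinity cAMP PDE insensitive to the common inhibitor IBMX, was at 25.6 CPM in CON2, 16.3 in CON3, 26.7 in CON4, 23.1 in CON5 and 20.3 in CON13. In WD libraries it was at 23.7 CPM in WD6, 36.5 in WD7, 27.7 in WD8, 44.4 in WD9 and 31.9 in WD15. Only WD6 fell within the control range. Its log2 fold change was 0.55 (SE 0.21, 95% interval 0.11 to 0.99; edgeR adjusted p = 0.401), and 0.41 without WD9. Its paralog PDE8A had the highest control mean of the PDEs by read pairs and spread more between control camels, from 26.3 CPM in CON13 to 71.3 in CON2, with 39.5 in CON3, 49.1 in CON4 and 54.5 in CON5. PDE8A in WD libraries was 38.0 CPM in WD6, 53.2 in WD7, 59.9 in WD8, 54.9 in WD9 and 63.8 in WD15. All of the WD values of PDE8A lay inside the control range, with a log2 fold change of 0.13 (95% interval −0.33 to 0.60), which was 0.011 without CON13 and 0.29 without CON2.

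PDE4 is the family blocked by rolipram. PDE4B was at 29.9 to 49.9 CPM in control and 54.3 to 59.1 CPM in WD libraries other than WD6, which was at 37.0, and its log2 fold change was 0.31 (95% interval −0.08 to 0.70). PDE4D was at 0.20 (−0.24 to 0.63) and PDE4A at 0.05 (−0.50 to 0.60). PDE4C was a low gene, at 6.28 ± 3.35 CPM in control libraries (n = 5). Of the rolipram-insensitive PDE7 pair, PDE7A was at 0.33 (−0.38 to 1.05) and PDE7B at −0.17 (−0.69 to 0.36). The 8 genes summed to 190 ± 26.4 CPM in control and 220 ± 25.4 CPM in WD libraries, with overlap.

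PDE1 is the family activated by calcium and calmodulin, which lets calcium lower cAMP and cGMP, and PDE1B was its highest gene by read pairs. PDE1B was at 28.2 CPM in CON2, 45.2 in CON3, 44.9 in CON4, 37.0 in CON5 and 67.0 in CON13. In WD libraries it was at 32.7 CPM in WD6, 33.4 in WD7, 21.0 in WD8, 27.5 in WD9 and 16.9 in WD15. The lowest control library, CON2, lay among the WD libraries, and the other 4 controls lay above all of them. PDE1B had a log2 fold change of −0.72 (SE 0.24, 95% interval −1.22 to −0.21; edgeR adjusted p = 0.292, DESeq2 adjusted p = 0.151), and −0.58 without CON13. PDE1A (0.18, interval −0.43 to 0.80) and PDE1C (−0.04, interval −0.65 to 0.56) were lower genes, with control means of 8.49 and 7.20 CPM.

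**Figure D4:**
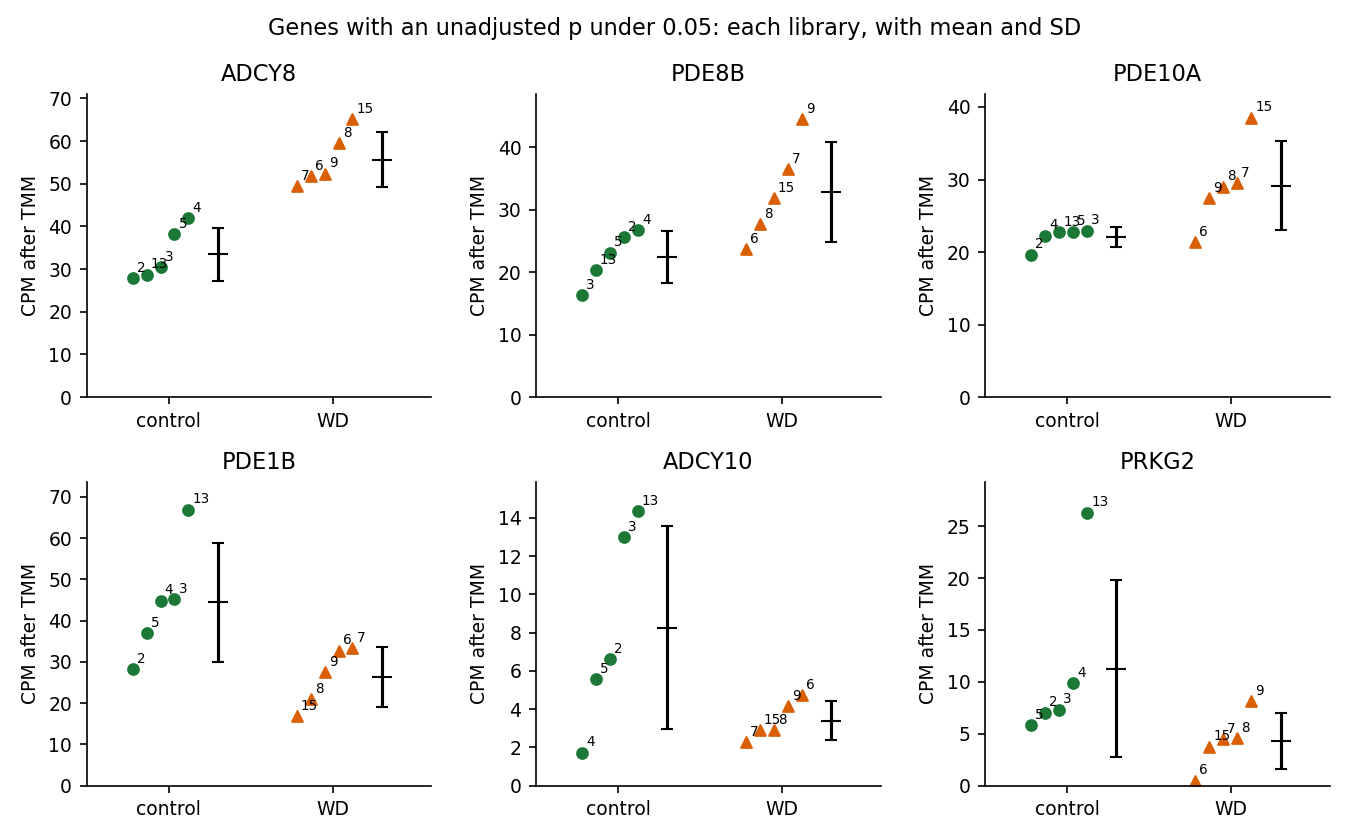
CPM after TMM of the 6 genes with an unadjusted p under 0.05 in each control (green circles) and WD library (orange triangles), numbered by replicate and sorted by value within a group, with the mean and SD beside them. ADCY8 alone has no overlap; WD6 joins the control range for PDE8B and PDE10A, CON2 joins the WD range for PDE1B, CON4 lies below the WD libraries for ADCY10, and CON13 stands far above the rest for PRKG2.

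PDE10A, best known from the medium spiny neurones of the striatum, had the most even control level of the set, at 19.6 CPM in CON2, 22.9 in CON3, 22.3 in CON4, 22.8 in CON5 and 22.7 in CON13. In WD libraries it was at 21.4 CPM in WD6, 29.5 in WD7, 29.0 in WD8, 27.5 in WD9 and 38.5 in WD15. The 4 WD libraries other than WD6 were above every control library. PDE10A had a log2 fold change of 0.41 (SE 0.19, 95% interval 0.02 to 0.81; edgeR adjusted p = 0.510), and 0.30 without WD15.

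PDE3B, a cGMP-inhibited PDE known for its part in insulin action and named after its values were seen, was at 13.2 to 37.6 CPM in control and 24.1 to 59.8 CPM in WD libraries, with WD15 the highest. Its log2 fold change of 0.52 (95% interval −0.04 to 1.08; edgeR adjusted p = 0.584) was 0.29 without WD15 and 0.22 with RNA integrity as a covariate, and the part of the microglial markers, highest in that library, was not tested. PDE2A, which cGMP activates, was at 0.04 (−0.49 to 0.58), PDE3A at −0.16 (−0.72 to 0.39) and PDE11A, the lowest gene by control mean, at −0.05 (−1.33 to 1.22). The 8 PDEs of both substrates summed to 145 ± 17.4 CPM in control and 146 ± 11.5 CPM in WD libraries.

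The cGMP-specific PDEs were lower by read pairs. PDE5A, the target of sildenafil, was at 14.1 CPM in CON2, 13.5 in CON3, 14 in CON4, 17.1 in CON5 and 32.3 in CON13, where the value rests on 27 counts. In WD libraries PDE5A was at 24.2 CPM in WD6, 10.8 in WD7, 15.4 in WD8, 13.4 in WD9 and 8.96 in WD15. The 2 highest PDE5A values were thus in CON13 and WD6, where read pairs outside the dominant IDs were fewest. PDE5A had a log2 fold change of −0.26 (95% interval −0.87 to 0.35), and −0.06 without CON13 but −0.45 without WD6. PDE9A, a PDE of high affinity for cGMP, was at 0.21 (−0.32 to 0.74). Of the photoreceptor PDEs, cone PDE6C was at −0.13 (−0.69 to 0.42) and rod PDE6B, with 158 counts in all, at 0.20 (−1.14 to 1.54). PDE6A, below the filter, was at 1.26 to 5.91 CPM in control and 0.864 to 5.69 CPM in WD libraries.

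Both PKG genes had lower means in WD libraries. PRKG1, the soluble kinase, was at 12.4 CPM in CON2, 12.3 in CON3, 12.9 in CON4, 13.8 in CON5 and 19.1 in CON13. It was at 4.75 CPM in WD6, 13.6 in WD7, 8.14 in WD8, 12.1 in WD9 and 7.29 in WD15, with only WD7 inside the control range. The log2 fold change of PRKG1 was −0.51 (SE 0.27, 95% interval −1.08 to 0.05; edgeR adjusted p = 0.599), and −0.32 without CON13 and WD6.

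PRKG2, the membrane-anchored kinase, was at 7.04 CPM in CON2, 7.33 in CON3, 9.87 in CON4, 5.86 in CON5 and 26.3 in CON13. In WD libraries it was at 0.475 CPM in WD6, a single read pair, 4.46 in WD7, 4.61 in WD8, 8.12 in WD9 and 3.75 in WD15. WD9 lay inside the control range, and CON13 stood far above every other library. PRKG2 had a log2 fold change of −1.09 (SE 0.46, 95% interval −2.06 to −0.11; edgeR adjusted p = 0.474), and it was −0.71 (edgeR adjusted p = 0.741) without CON13 and −0.52 (edgeR adjusted p = 0.515) without CON13 and WD6. The 2 genes summed to 25.4 ± 11.3 CPM in control and 13.5 ± 5.95 CPM in WD libraries (n = 5 each).

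**Figure D5:**
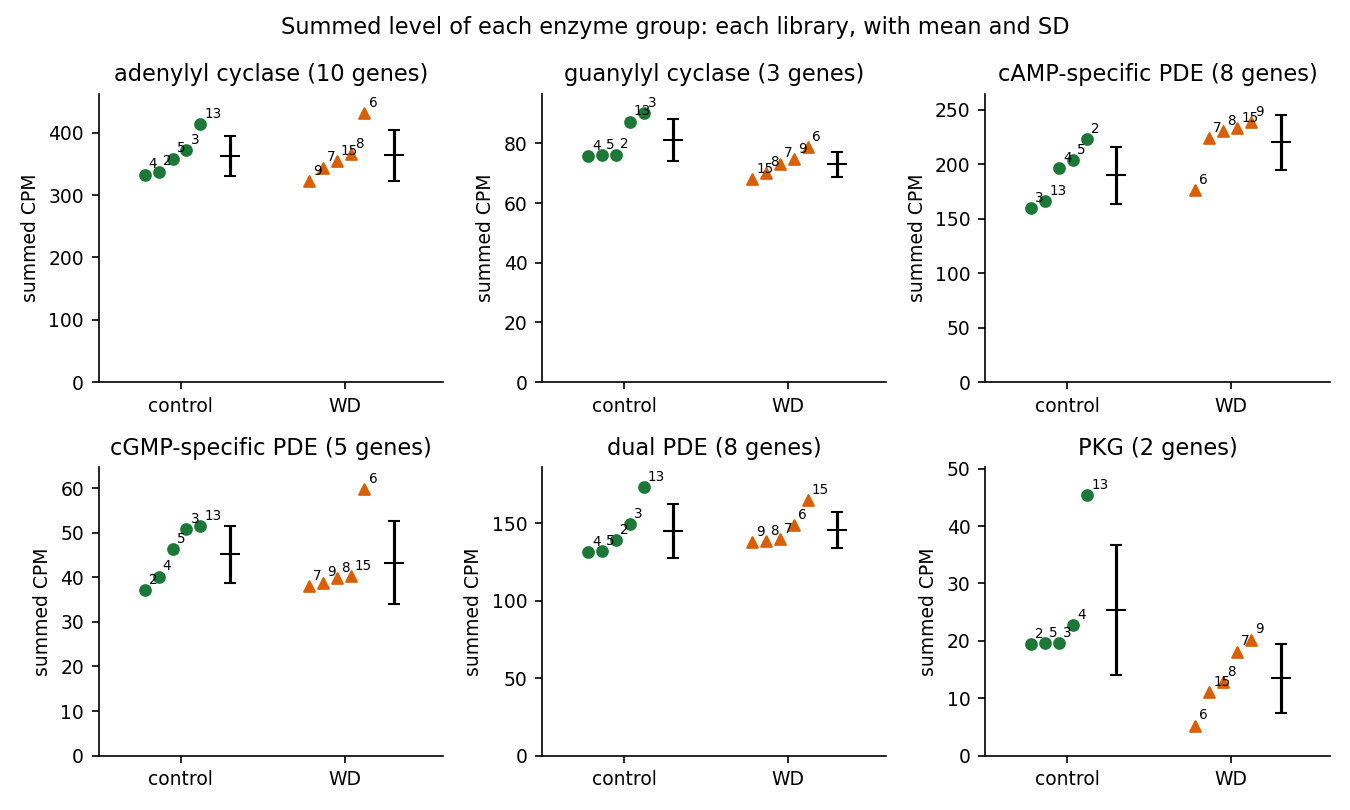
Summed CPM of each enzyme group in each control (green circles) and WD library (orange triangles), numbered by replicate and sorted by value within a group, with mean and SD beside them; axes start at 0. Control and WD libraries overlap in all 6 panels, and the control mean of PKG (25.4 CPM) is drawn up by CON13.

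The comparison was repeated without the 2 libraries of least depth outside the dominant IDs. Without CON13 and WD6, edgeR again called none of the 35 genes, against 0.59% of all genes, and 6 reached an unadjusted p under 0.05, against 12.1%, with PDE7A (0.60) in place of PRKG2. In these 4 control and 4 WD libraries, 6 of the 35 genes (17.1%) did not overlap between groups, against 7.65% of all genes (3.68% higher and 3.97% lower in WD), a count added after the data were seen. ADCY8, PDE8B, PDE10A, PDE4B and PDE7A were higher in WD and ADCY2 lower. PDE7A was at 4.97 to 6.29 CPM in control and 7.52 to 9.58 CPM in WD libraries, and PDE4B at 36.4 to 49.9 and 54.3 to 59.1 CPM. ADCY2 only just separated, with 61.1 CPM as the highest WD and 61.3 CPM as the lowest control value. The adjusted p of these 6 genes lay between 0.117 and 0.443 (edgeR).

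The genes that surround the enzymes in the pathway were taken as a list of 26 (PKA subunits, EPAC, other guanylyl cyclases, channels, transcription factors and others). The list was chosen with earlier results of these data known, and it holds CREM, which the study reports as higher in WD. Its counts therefore describe the list and do not test it. Of these, 21 were tested, 1 was called higher (0.27% of all genes) and none lower, and 7 reached an unadjusted p under 0.05, of which 6 were lower in WD, against 9.31% of all genes and 4.41% lower. The median log2 fold change was −0.13. DESeq2 called 2 of the 23 to which it gave an adjusted p, CREM and ADCYAP1R1, against 1.27% of all genes with one.

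CREM, a transcription factor of cAMP-responsive genes whose product ICER represses them, was the called gene. It was at 8.11 CPM in CON2, 6.39 in CON3, 5.85 in CON4, 6.73 in CON5 and 1.20 in CON13. It was at 24.7 CPM in WD6, 22.4 in WD7, 15.1 in WD8, 25.7 in WD9 and 19.4 in WD15. Every WD library was above every control library, and the log2 fold change was 1.77 (SE 0.27, 95% interval 1.21 to 2.33; edgeR adjusted p = 0.00313). With libraries scaled by their totals the call of CREM was lost (1.88; edgeR adjusted p = 0.155). The related factors CREB1 (0.30, interval −0.21 to 0.80) and ATF1 (0.17, interval −0.52 to 0.86) were not called.

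Upstream of the cyclases, ADCYAP1R1, the receptor for the peptide PACAP, which couples to adenylyl cyclase, was lower in every WD library. Its level was 330 CPM in CON2, 411 in CON3, 416 in CON4, 417 in CON5 and 352 in CON13, and 274 CPM in WD6, 260 in WD7, 276 in WD8, 285 in WD9 and 192 in WD15. The log2 fold change was −0.58 (SE 0.17, 95% interval −0.93 to −0.23), with an adjusted p of 0.194 from edgeR and 0.00578 from DESeq2. The groups also did not overlap for HCN4, a channel opened by hyperpolarization whose gating cAMP modulates. It was at 9.06 to 15.5 CPM in control and 4.17 to 9.02 CPM in WD libraries (−0.94, interval −1.52 to −0.36; edgeR adjusted p = 0.205). GUCY2C, the receptor for guanylin, was at 10.5 to 15.5 CPM in control and 5.22 to 10.5 CPM in WD libraries, apart by less than the rounding (−0.78, interval −1.32 to −0.25; edgeR adjusted p = 0.266). With 1 higher and 3 lower, 4 of the 21 tested genes did not overlap, against 2.62% of all genes.

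The following genes of the list are named after their values were seen. Of the PKA subunits, PRKACA (−0.38, interval −0.75 to −0.01) and PRKAR1B (−0.58, interval −1.09 to −0.08) had an unadjusted p under 0.05, and PRKACB was at 0.31 (−0.21 to 0.83). The anchor AKAP12, at 448 to 786 CPM in control and 353 to 512 CPM in WD libraries, was at −0.53 (−0.92 to −0.13; edgeR adjusted p = 0.339). The EPAC genes RAPGEF3 (0.04) and RAPGEF4 (0.33), and GUCY1B1 (0.11), the β subunit that GUCY1A2 needs to form a working cyclase, had intervals that held 0. GUCY2F, NPR3, PDE6H, CNGA1 and NPPC were below the filter. The ID paired with PRKAR2A carries the description of another gene in these tables, so its value of −0.01 is uncertain.

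Markers of other cell types were read in the same libraries. ALDH1L1, the astrocyte marker with an ID, was at 17.6 to 27.0 CPM in control and 25.5 to 42.2 CPM in WD libraries (0.55, unadjusted p = 0.0164 in edgeR, not called). The 3 oligodendrocyte lineage markers summed to 50.6 to 117 CPM and 39.2 to 94.0 CPM, and the 6 markers of endothelium and mural cells to 286 to 522 CPM and 278 to 569 CPM. Within the latter sum, 3 of the 6 genes had an unadjusted p under 0.05 in edgeR, against 9.31% of all genes, and none was called. These were the endothelial genes FLT1 (0.62) and KDR (0.64) and the smooth muscle gene ACTA2 (−0.97), in opposite directions. The endothelial genes VWF (0.17) and TEK (−0.06) and the mural gene PDGFRB (0.18) had intervals that held 0, so neither cell type moved as a whole. The part of these shifts in the values of the cyclases, PDEs and kinases was not tested.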

How the data were processed

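Files of paired reads were merged by the authors, and the reads were cleared of adaptors (BBDuk), mapped with STAR on the Camdro2 genome and assigned to genes with FeatureCounts. The deposited values are counts per gene for each library, without normalization or pooling. A second deposited table holds normalized signal, which equals the counts divided by DESeq2 size factors to within 5.4e-10 and was used here as a check. Annotation release, strandedness in counting and the handling of read pairs shared by genes are not given in the sources used here. In RefSeq's mCamDro1.pat table, 16 of the 36 genes overlap another gene and 7 (ADCY3, ADCY6, PDE7A, PDE8B, PDE6C, PDE3B and PRKG1) a protein-coding one. The counts were made on another assembly, and overlaps in its annotation were not checked, so the counts of these genes may be less certain.

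The test was edgeR 4.0.16 (R 4.3.3; TMM, filterByExpr by group, robust quasi-likelihood fit, Benjamini-Hochberg over 14432 genes, threshold 0.05). Standard errors are the log2 fold change over the square root of F, and 95% intervals use the t distribution of the fit. The biological coefficient of variation was 0.285. Alternatives were DESeq2 1.42.0 (Wald test), other size factors, other filters on low counts, a fit that was not robust, RNA integrity, fragment size or depth as covariates, and libraries left out. Python 3.11.15 with pandas 2.3.3 and matplotlib 3.10.9 was used for summaries.

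The genes, lists, markers and tests were chosen with earlier results of these data known. Among the 36 genes, values per library are given for those called by either tool, at an unadjusted p under 0.05 or without overlap, for the highest control level of each enzyme group, and for the largest rise and fall. Replicate libraries come from different camels, and every pair differed by more than sampling noise (lowest chi-square over its degrees of freedom, 8.62). This spread mixes animal and technical differences and is no check of quality. The study's sheet of libraries states that some samples had duplicates, of which the better was used.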

Additional observations from a re-analysis of the deposited data

Results flagged for a closer look

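In each group of 5 libraries, a single library far from the other 4 was looked for on the log2 scale, in 80 groups from the 36 genes and 4 partner genes. The cut-off flags about 1 in 20 independent groups by chance, but all 80 groups come from the same 10 libraries. The 4 partner genes were those called or without overlap. Of the 10 flags found, 4 were in CON13 and 3 in WD6. In these libraries 1 read pair weighs most, and the PDE4B value in WD6 rests on 78 counts. The part of depth in the flags was not tested.

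CON13 was the highest control library for PDE5A (32.3 CPM from 27 counts, with the others at 13.5 to 17.1), PDE7B (23.9 CPM from 20 counts, others 12 to 12.8) and PRKG1 (19.1 CPM from 16 counts, others 12.3 to 13.8). It was the lowest for CREM, at 1.20 CPM from 1 count, with the others at 5.85 to 8.11. WD6 was the lowest WD library for PDE4B (37.0 CPM, others 54.3 to 59.1) and for PDE7A (1.90 CPM from 4 counts, others 7.52 to 9.58), and the highest for PDE6A (5.69 CPM from 12 counts, others 0.864 to 1.46). CON2 was the lowest control library for ADCY3 (47.6 CPM, others 63.1 to 70.2) and for PDE10A (19.6 CPM, others 22.3 to 22.9). WD15 was the lowest WD library for ADCYAP1R1, at 192 CPM, with the others at 260 to 285. The cause of these values was not tested.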

How the results depend on the processing

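No paired analysis was possible because control and WD libraries share no replicate number. The order of genes per kb was not run, since no transcript length was available. Over all genes, 72 were called (39 higher), against 209 (105 higher) with DESeq2, 10 (7 higher) with library totals, 155 (88 higher) with depth as a covariate, 70 higher with RNA integrity as a covariate, and 40 to 102 (20 to 50 higher) with 1 library left out, with 40 without CON3 and 102 without WD6. Of the 36 genes, 1 (ADCY8) was called with DESeq2 and 1 (ADCY8) with depth, and 0 with 1 library left out. An unadjusted p under 0.05 was found for 6 (9.31% of all genes), but for 2 with library totals (3.04%). With 1 library left out it was found for 3 (without CON3, 6.90%) to 9 (without WD6, 13.4%). With RNA integrity as a covariate it was found for 4 (9.57%), with PDE10A and PRKG2 falling out. With depth as a covariate it was found for 5 (12.4%), without ADCY10 and PRKG2 but with ADCY7. Genes without overlap were 1, but 0 with library totals (0.603% of all genes), 6 without CON13 and WD6 (7.65%), and 1 to 4 (without WD6, 5.95%) with 1 library left out, where the share of all genes was 3.17% to 5.95% against 2.62%.

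Library totals moved the median of all genes by 0.14 on the log2 scale. NPR2 then turned to 0.038, CREM lost its call (1.88, adjusted p = 0.155), and the log2 ratio of summed levels became 0.15 for adenylyl cyclases, 0.18 for PDEs of both substrates, 0.0067 for guanylyl cyclases and 0.28 for all PDEs, against 0.00, 0.01, −0.15 and 0.11. Relative to that median, ADCY8 was at 0.70 in either scaling. ADCYAP1R1 was called by DESeq2 alone. The cause of these shifts was not tested beyond the scaling itself. Depth limits the low genes most: in CON13, 3 counts are worth more CPM than the control mean of PDE6A.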
